A study of Mus musculus with 23 samples.

Results

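Retinal microglia were compared between naïve retinas and retinas taken at day 7 after optic nerve crush (ONC), an injury that cuts off the axons of the retinal ganglion cells. The comparison rests on 7 of the 23 RNA-seq libraries of the study, 3 from WT ONC retinas and 4 from WT naïve retinas, and covers 15497 of 35825 listed genes, those that reached 10 normalized counts in 3 or more of these 7 libraries. A normalized count is the read count of a gene divided by a size factor of its library. The mice called WT were CX3CR1-GFP mice with an intact Spp1 gene, a line with a GFP reporter placed in the Cx3cr1 locus, of which the methods call the breeders heterozygous. Per the methods, retinas of several mice were pooled before GFP+ cells were sorted by FACS, while a legend of the study counts mice for RNA-seq values. How many mice stand behind a library, and their age, are not given in the sources used here. In the ONC group 1 optic nerve of each mouse was crushed. The labels give the naïve retinas as untreated, so surgery and crush cannot be told apart. The Cx3cr1 reporter also marks other macrophages and monocytes. For comparison 4 WT IOP libraries, taken 4 weeks after intraocular pressure was raised with microbeads, and 4 libraries labelled KO naïve and 4 labelled KO ONC, from Spp1 KO mice with the same reporter by their labels, are used. In 3 of those labelled KO ONC, Spp1 reads went against the label.

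Microglia are the resident macrophages of the retina and brain. In the healthy tissue they carry receptors such as P2RY12, CX3CR1 and CSF1R, survey neurons and synapses, and are recognized by these homeostatic genes. Near dying neurons and in neurodegeneration many of them take up debris, expand their lysosomes and express a disease-associated set of genes that includes Cst7, Clec7a, Axl and Itgax. A separate antiviral programme follows type I interferon, which acts through transcription factors such as STAT2, IRF9 and IRF7.

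The 4 naïve libraries held 27840096 to 30296094 reads on genes and the 3 ONC libraries 22180480 to 27573292. A gene with no read could have had up to 3 at this depth, which is 2.45 to 2.79 normalized counts in naïve and 3.45 to 4.03 in ONC libraries (counting error only). The microglial genes were abundant in all 7 libraries: Csf1r, the receptor for the growth factors CSF1 and IL-34, was between 231053 and 402467. Genes of other retinal cells were present as well, and the ONC libraries differed in them. A list of 15 rod photoreceptor markers took 1.70 to 2.09% of the normalized counts in the naïve libraries, 2.14% in WT ONC replicate 2, and 0.576% and 0.693% in replicates 1 and 3. Replicate 1 had the largest normalized total, 37006393 against 24001958 to 32229821 in the other 6 libraries. The libraries also differed in Y-linked transcripts. Ddx3y was at 2623, 556, 0 and 805 in the naïve and at 1797, 9.21 and 3.51 in the ONC libraries. Pearson correlations of log2 values were 0.928 to 0.955 among naïve libraries, 0.870 to 0.908 among ONC libraries and 0.803 to 0.913 between the groups. In bulk samples of this kind, fewer cells of a type and less RNA per cell cannot be told apart.

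ONC was followed by changes in a large part of the transcriptome. Of the 15497 genes, 1338 (8.63%) were called higher after ONC and 1836 (11.8%) lower, where a call needs an adjusted p under 0.05 in limma and a log2 fold change beyond 0.58 in size. The 3 ONC libraries lay above all 4 naïve libraries in 13.1% of the genes tested and below all 4 in 15.1%. Of the 3174 called genes, 2682 had groups that did not overlap. The balance of rises and falls depended on scale. The median log2 fold change of all genes was -0.07 as deposited and -0.37 after each library was divided by its own total, a rescaling that gave 780 higher and 2832 lower. Removing a trend with transcript length and GC content gave 1633 higher and 1437 lower. Over the 15440 tested genes with a known transcript length, the median log2 fold change was 0.21 in the eighth of genes with the shortest transcripts (up to 687 bases) and -0.48 in the eighth with the longest (3497 bases or more). In the libraries labelled KO these medians were 0.14 and -0.54. Leaving out WT ONC replicate 2, the library rich in rod transcripts, raised the calls to 5269, 14.6% of genes higher and 19.4% lower, and kept 3075 of the 3174. Leaving out replicate 1 lowered them to 1507.

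The called genes were read through 20 gene lists that follow the biology of microglia. Of 557 list genes tested, 185 were called higher and 50 lower. Among the 20 lists, those with the largest share of risen members were the type I interferon response, MHC class I presentation, disease-associated microglia and the lysosome. Cholesterol synthesis and uptake was the list with the largest share of fallen members.

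**Figure D1:**
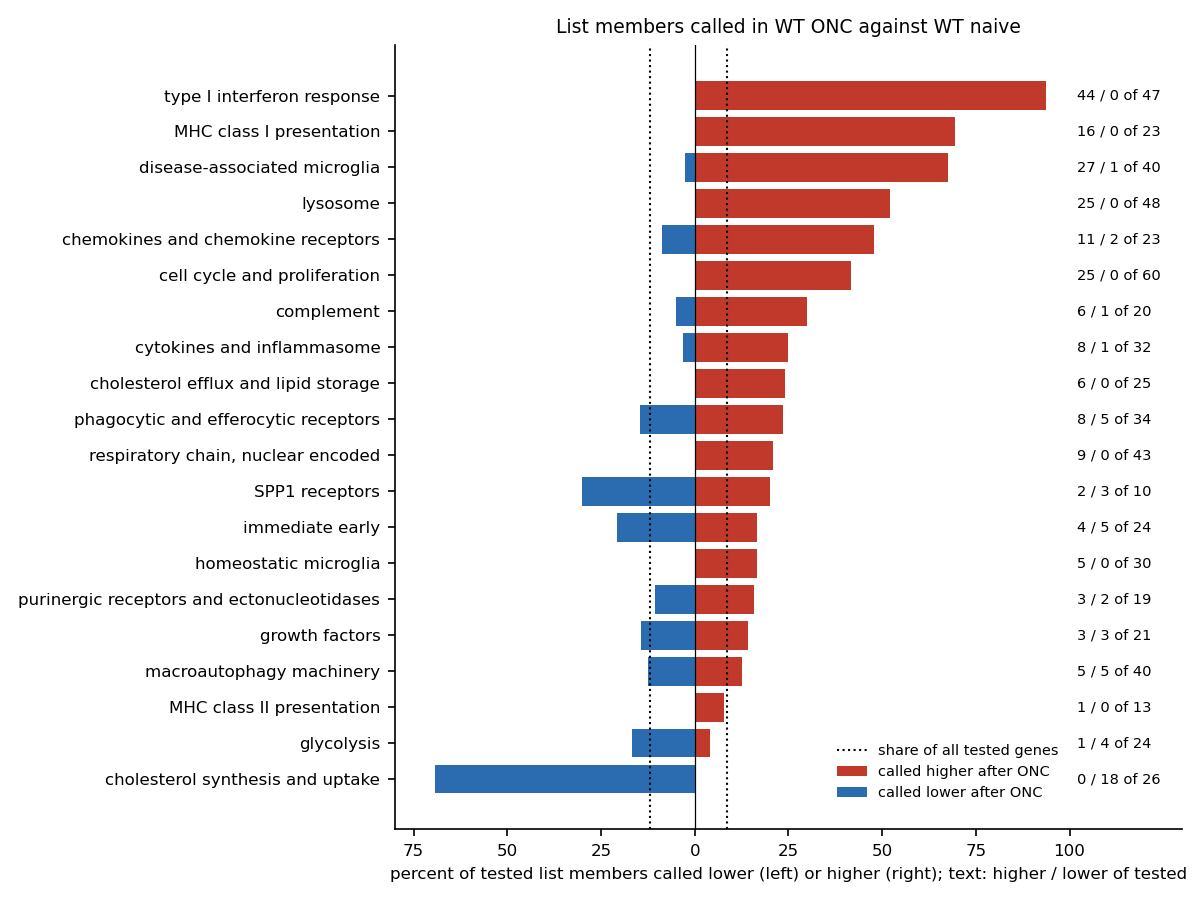
Percent of the tested members of each gene list called higher (red, right) or lower (blue, left) in WT ONC against WT naïve, with the counts at the right edge. The dotted lines mark the shares over all tested genes, 8.63% higher and 11.8% lower, and 44 of 47 interferon genes lie on the higher side while 18 of 26 cholesterol genes lie on the lower side.

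The most uniform response was that of interferon-stimulated genes. Of 47 tested genes of the type I interferon list 44 rose, 0 fell, and all 47 had a positive log2 fold change, with a median of 2.31 against -0.07 for all genes. Leaving out any 1 of the ONC libraries left 37 to 44 of them called. Together these genes took 0.178 to 0.277% of the normalized counts in the naïve libraries and 0.940, 0.915 and 1.19% in the ONC libraries.

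Ifi27l2a, an interferon-induced gene of the mitochondrial ISG12 family on chromosome 12 (103442167 to 103443680, GRCm38), was at 987, 1532, 791 and 853 in the naïve libraries and at 60049, 8791 and 14917 after ONC. Every ONC library was above every naïve library, and replicate 1 was far above the other ONC libraries. The log2 fold change was 4.31 ± 0.48 (SE, adjusted p = 5.0e-06). Isg15, which encodes a ubiquitin-like protein that is attached to other proteins during antiviral responses, was at 169, 259, 122 and 140 in naïve and 2080, 925 and 2516 in ONC libraries (log2 fold change 3.35 ± 0.39, adjusted p = 7.7e-06). Zbp1, a sensor of Z-form nucleic acids that can start necroptosis, was at 425, 501, 343 and 303 before and at 4986, 1955 and 4898 after ONC. Cxcl10, the chemokine that draws CXCR3+ T cells, was at 156, 248, 149 and 73.4 before and at 2609, 1367 and 1808 after. In Isg15 and Zbp1 replicate 2 was the lowest of the ONC libraries and still several times above the naïve range. Irf7, the factor that amplifies interferon production, was at 1187 to 2745 in naïve and 14144 to 17561 in ONC libraries. The 3 members that did not pass were Samd9l, Slfn8 and Mx2, with log2 fold changes of 0.70 to 1.07. Ifi44l was at 0 in all 7 libraries. The receptors for interferon were not on the list and were looked at after these values were seen. Ifnar1 was at 3611 ± 304 (SD, n = 4) in naïve and 3209 ± 386 (SD, n = 3) in ONC libraries (log2 fold change -0.17, adjusted p = 0.45).

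The promoters of interferon genes are shown because their members moved together. Interferon-stimulated response elements hold a pair of GAAA blocks. A GAAA followed after any 2 bases by another GAAA was searched on both strands in the RefSeq promoter windows of GRCm38.p6, from 250 bases before to 50 bases after each gene's start. Of the 44 risen list genes 34 had a window, and 19 of the 34 (55.9%) held the pair. Over all list members with a window it was 20 of 37 (54.05%). The list holds known interferon-stimulated genes, so its share cannot show a link of the pair to the rise after ONC. The pair was found in 3.88% of the tested genes with a window and in 3.44% of all 32851 windows. Among all genes called higher the share was 8.64%. In the stretch before the start of Isg15, chr4:156200825-156200934 on the minus strand, 3 overlapping matches lie next to each other, and in that of Cxcl10, chr5:92349030-92349139 on the minus strand, there is 1. Capitals mark the matches, which are letters in a window and not tested binding sites. Both stretches are printed 5′ to 3′ on the strand of the gene.
Isg15: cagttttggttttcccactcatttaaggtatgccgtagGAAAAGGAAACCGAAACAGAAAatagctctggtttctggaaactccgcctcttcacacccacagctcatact
Cxcl10: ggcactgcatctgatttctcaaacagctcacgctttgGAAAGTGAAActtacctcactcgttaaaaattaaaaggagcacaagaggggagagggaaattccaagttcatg

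Many genes of MHC class I presentation rose as well. Of 23 tested genes 16 rose and 0 fell, with a median log2 fold change of 1.51, and the list took 0.752 to 0.802% of normalized counts in naïve and 1.42 to 1.71% in ONC libraries. H2-K1, a classical class I heavy chain, was at 9430, 10283, 8540 and 10732 in naïve and 49359, 25744 and 39328 in ONC libraries, a log2 fold change of 1.92 ± 0.31 (SE, adjusted p = 0.00016). B2m, the light chain shared by class I molecules, was at 37340 to 45421 before and 91177 to 172798 after. The non-classical genes H2-Q7, H2-Q6 and H2-T22 had log2 fold changes of 3.42, 2.65 and 2.54. The H2-Q and H2-T genes are near-identical copies, so reads may have been split between them and their single values are uncertain. Tap1, the peptide transporter, and the immunoproteasome subunits Psmb8 and Psmb9 also rose, with log2 fold changes of 1.86, 1.62 and 1.72.

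Genes of MHC class II presentation gave little change. Of 13 tested genes 1 was called, as higher (7.69%, against 8.63% over all tested genes). It was Cd40, the co-stimulatory receptor, at 106, 238, 54.1 and 38.1 in naïve and 424, 280 and 428 in ONC libraries (log2 fold change 2.11 ± 0.70, adjusted p = 0.036). Cd40 was not called in 5 of 7 fits without 1 library, and without ONC replicate 2 there were 4 calls. The invariant chain gene Cd74 was at 25719 and 23335 in naïve replicates 1 and 2, at 7551 and 5410 in replicates 3 and 4, and at 3703, 5713 and 17978 after ONC. The groups overlapped, and Cd74 was not called.

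The disease-associated microglia list followed. Of 40 tested genes 27 rose and 1 fell, with a median log2 fold change of 1.42, and the list took 4.06 to 4.79% of normalized counts in naïve and 7.00, 8.01 and 8.36% in ONC libraries. Without replicate 2 the count was 29 higher and 3 lower. Cst7, the gene of the cysteine protease inhibitor cystatin F (chromosome 2, 150570415 to 150578944), was at 376, 289, 269 and 382 in naïve and at 5794, 5573 and 5595 in ONC libraries. The ONC values of Cst7 lay close together although the libraries differed in rod transcripts, and the log2 fold change was 4.12 ± 0.30 (SE, adjusted p = 5.7e-08). Clec7a, the beta-glucan receptor dectin-1, was at 5216, 4081, 3237 and 3976 before and 47163, 17812 and 29792 after (2.85 ± 0.35). Axl, a receptor for phosphatidylserine on dying cells, was at 8050 to 12647 before and at 76585, 41125 and 80296 after (2.65 ± 0.35). Itgax, the integrin CD11c, was at 546 to 765 before and at 4279, 4236 and 6788 after (2.96 ± 0.49). Csf1, a growth factor that sustains microglia, was at 125 to 327 before and at 1643, 2811 and 4024 after (3.55 ± 0.49). Ccl4 and Cox6a2 had log2 fold changes of 3.82 and 3.56.

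Not every member of that list moved. Trem2, the lipid receptor that the disease-associated state depends on in mouse models, was at 13060 to 15288 before and at 34522, 15932 and 25532 after, and was not called (log2 fold change 0.77, adjusted p = 0.075). Gpnmb and Igf1 had log2 fold changes of -0.05 and 0.01, with ONC libraries on both sides of the naïve range: Igf1 was at 877 to 1302 in naïve libraries, at 329 in ONC replicate 1 and at 2190 and 1555 in replicates 2 and 3. Apoe, a lipid carrier that Müller glia make in quantity, was at 196911, 305619, 177049 and 250863 before and at 30976, 211756 and 113531 after ONC. It was not called (log2 fold change -1.33 ± 0.49, adjusted p = 0.057), but it was called lower without replicate 2 (adjusted p = 0.0041). The 12 other tested Müller glia markers took 0.168 to 0.222% of naïve libraries and 0.0957, 0.196 and 0.110% of ONC libraries, and their part in the Apoe values was not tested. Aplp2, the member that fell, is a relative of the amyloid precursor gene. It was at 27409 to 30230 in naïve libraries and at 10043, 21193 and 14414 after ONC.

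**Figure D2:**
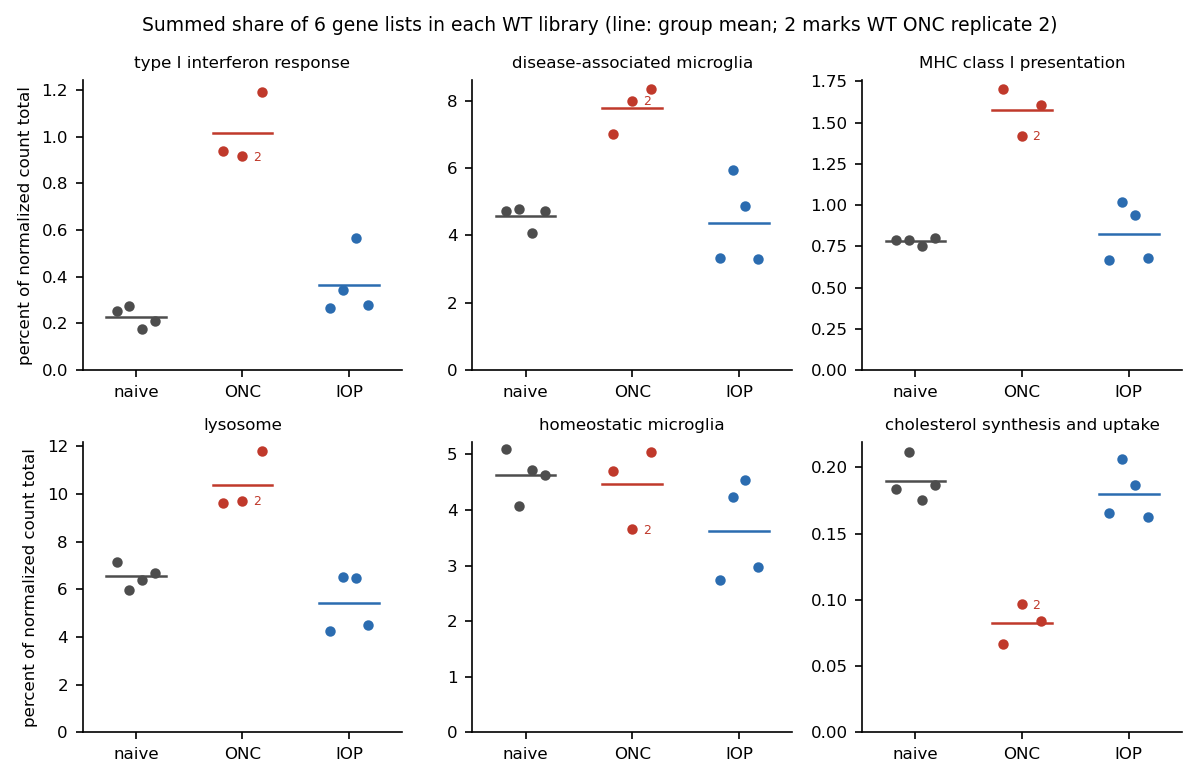
Percent of the normalized count total taken by 6 gene lists in each WT library, with a point per library and a line at the group mean. ONC libraries lie above all naïve libraries for the interferon, disease-associated, class I and lysosome lists and below them for cholesterol synthesis (0.0668 to 0.0966% against 0.176 to 0.212%). For homeostatic genes ONC replicates 1 and 3 lie among the naïve libraries (4.08 to 5.10%) and replicate 2 below them (3.65%).

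Spp1, which encodes the secreted glycoprotein osteopontin, is the gene the study is about and a member of the disease-associated list (chromosome 5, 104435118 to 104441050). It was at 1228, 1518, 334 and 492 in naïve and at 14557, 16067 and 22906 in ONC libraries, and at 1343 to 2772 in the WT IOP libraries. All 3 ONC libraries lay far above the naïve range. The study, by staining, found no SPP1 protein in retinal microglia, injured or not, and places it in alpha ganglion cells. The values here are RNA from sorted cells that also held transcripts of other retinal cells. Which cells the Spp1 reads came from was not tested. The log2 fold change was 4.55 with a standard error of 1.71, and the adjusted p was 0.062, so Spp1 did not pass in the fit over all 23 libraries. That fit takes its spread from all groups, and Spp1 ranged from 15.0 to 6811 within KO ONC. With the 2 WT groups alone the adjusted p was 0.00196, with edgeR 0.0131 and with DESeq2 0.00108, and over all alternatives it ranged up to 0.151. The receptors of osteopontin moved little or in both directions. The study itself reports a rise of ItgαV, and of CD44 in cells that carry it, in sorted microglia after both injuries. It gives this for protein and, by qPCR, for mRNA. Of 10 tested receptor genes 2 rose (20%) and 3 fell (30%), against 8.63% and 11.8% over all tested genes. Itgav, the integrin subunit alpha V, was at 895 to 1360 before and at 1349, 998 and 2703 after (log2 fold change 0.47, adjusted p = 0.34). Its partner Itgb3 was at 1621 to 2402 before and at 1114, 1619 and 3966 after (-0.10, adjusted p = 0.89). Cd44 was at 780 to 995 before and at 1037, 1079 and 1738 after. Its groups did not overlap but it was not called (0.52, adjusted p = 0.24). Itgb1 (1.47) and Itga5 (0.75) were called higher, and Itga4 (-1.18) and Itga9 (-1.53) lower. Itga8 was called lower as well, with 3 reads in all ONC libraries together. The ratio of its naïve to its ONC mean was 36.6, with a 95% counting interval of 11.8 to 167. Both rises were lost without ONC replicate 1, without replicate 3, with both groups alone, with the rod marker mean as a covariate, and under the upper-quartile, library-total and quantile scalings, and without replicate 1 only 1 fall was left.

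Homeostatic genes showed no common direction. Of 30 tested genes 5 rose (16.7%, against 8.63% over all tested genes) and 0 fell (against 11.8%), with a median log2 fold change of 0.25. Egr1, Mef2a, Rhob and Olfml3 were among the 5. P2ry12, the purinergic receptor that directs microglial processes to ATP, was at 65095, 49335, 64603 and 70733 before and at 47652, 25227 and 40445 after. All 3 ONC libraries were below all 4 naïve libraries, but P2ry12 was not called (log2 fold change -0.76 ± 0.33, adjusted p = 0.10). Tmem119 was at 41897 to 59401 before and at 62260, 29573 and 57291 after (-0.14, adjusted p = 0.80), and Cx3cr1, the fractalkine receptor, at 44957 to 67878 and 54810, 35527 and 33361 (-0.42, adjusted p = 0.43). In Tmem119 and P2ry12 replicate 2 was the lowest. Aif1, the gene of the macrophage marker IBA1, rose from 6161 to 7515 in naïve libraries to 33698, 9410 and 15465 (1.35 ± 0.37, adjusted p = 0.013), and lost its call without replicate 1. Without ONC replicates 1 and 3 in turn, 3 and 1 homeostatic genes were called higher. The count also depended on scale and on the rod transcripts. It was 4 higher and 3 lower after division by library totals, and 1 higher and 5 lower with the rod marker mean as a covariate.

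**Figure D3:**
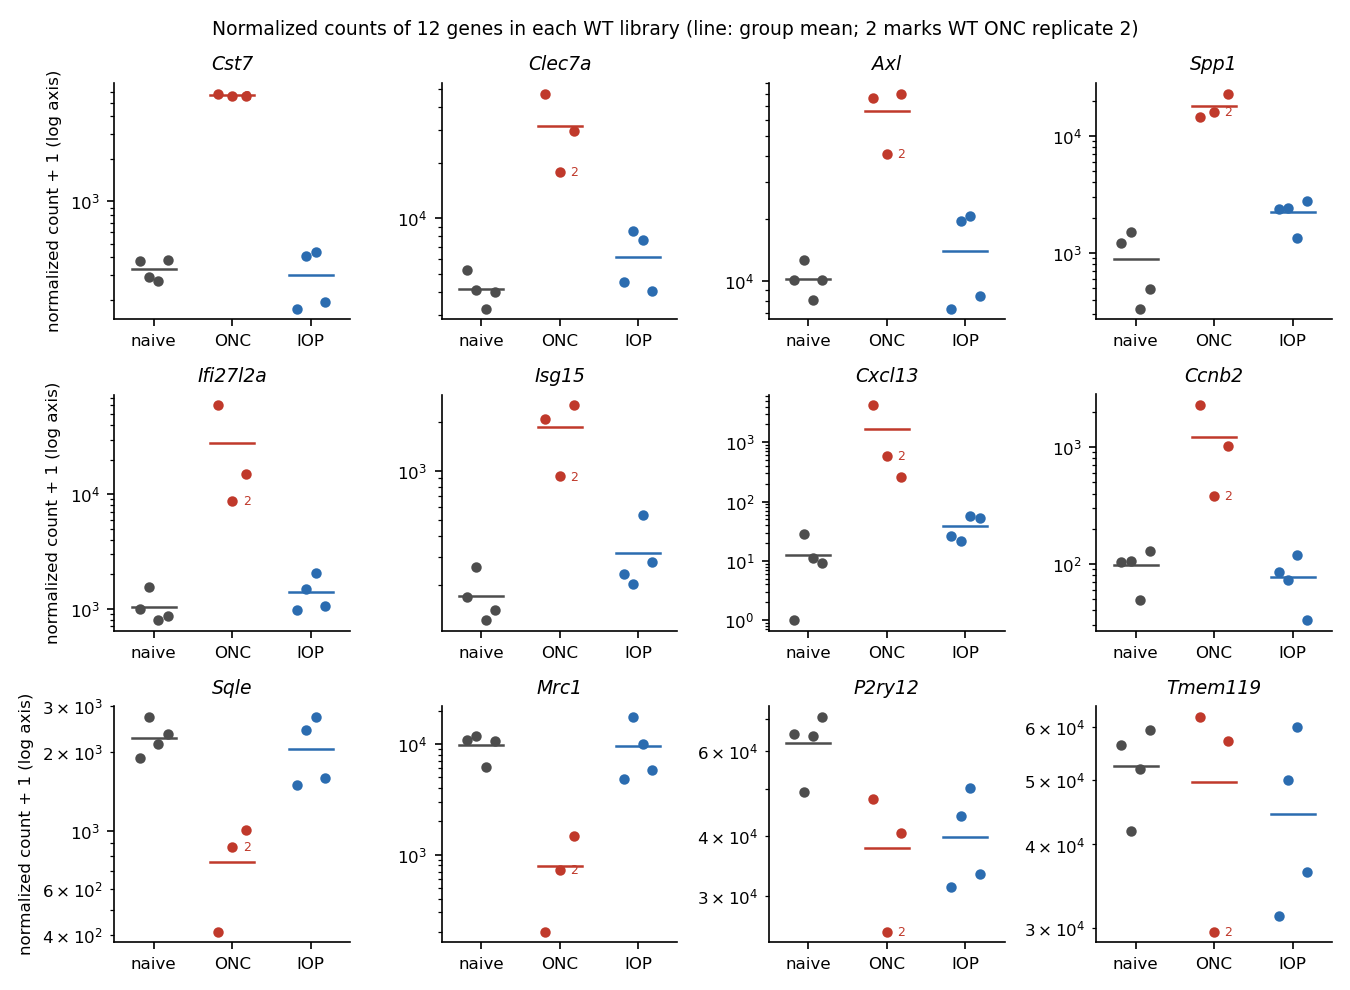
Normalized counts plus 1, on log axes, of 12 genes in the WT naïve, WT ONC and WT IOP libraries, with a point per library and a line at the group mean. Cst7 lies at 5573 to 5794 in all 3 ONC libraries, while Tmem119 overlaps between the groups and Sqle and Mrc1 lie lower after ONC.

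Genes of cell division rose in part. Of 60 tested genes 25 rose and 0 fell, with a median log2 fold change of 1.54. Ccna2, Ube2c, Ccnb2 and Pbk had the largest rises. Ccnb2, cyclin B2, was at 103, 104, 48.1 and 128 in naïve and 2282, 381 and 1013 in ONC libraries (3.40 ± 0.63, adjusted p = 0.00074). Ube2c, the ubiquitin-conjugating enzyme of the anaphase-promoting complex, was at 44.4, 67.0, 32.1 and 76.2 before and at 1135, 249 and 725 after. Mki67, the proliferation marker Ki-67, was at 92.3, 153, 84.5 and 191 before and at 470, 318 and 469 after (1.74 ± 0.60, adjusted p = 0.045), and lost its call in 5 of 7 fits without 1 library. Of the 6 tested subunits of the MCM helicase that opens DNA for replication, Mcm2 to Mcm7, 0 were called, with log2 fold changes of 0.17 to 0.92. In Ccnb2, Ube2c and Mki67 replicate 2 was the lowest ONC library. The count was 13 without replicate 1, 31 without replicate 2 and 14 with the rod marker mean as a covariate.

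Promoters of cell cycle genes carry the cell cycle homology element, whose core TTTGAA was searched on both strands. Of the 25 risen list genes 22 had a RefSeq window, and 14 of them (63.6%) held the letters. Over all list members with a window, risen or not, it was 23 of 47 (48.9%). The share was 16.3% among all genes called higher, 14.7% of tested genes with a window and 17.9% of all windows. The list holds known cell cycle genes, so its share cannot show a link of the letters to the rise after ONC. Short letters such as these occur often. The stretches before the starts of Ube2c, chr2:164769819-164769928 on the plus strand, and Ccnb2, chr9:70421664-70421773 on the minus strand, are shown with the matches in capitals.
Ube2c: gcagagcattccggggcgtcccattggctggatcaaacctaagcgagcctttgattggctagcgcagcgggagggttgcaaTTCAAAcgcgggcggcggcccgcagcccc
Ccnb2: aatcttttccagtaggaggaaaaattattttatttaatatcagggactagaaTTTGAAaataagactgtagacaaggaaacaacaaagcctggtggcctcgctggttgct

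Chemokine genes gave some of the largest rises. Of 23 tested genes 11 rose (47.8%) and 2 fell (8.70%), against 8.63% and 11.8% over all tested genes. Cxcl13, the B cell chemokine, was at 0, 27.0, 10.1 and 8.36 in naïve and at 4213, 586 and 260 in ONC libraries (log2 fold change 6.88 ± 1.07, adjusted p = 0.00013). Its ONC libraries differed widely, all above the naïve range. Ccl4, a chemokine of activated macrophages, was at 200 to 331 before and at 4658, 2665 and 3466 after. Ccl2, the chemokine that recruits CCR2+ monocytes, was at 87.0 to 189 before and at 2771, 832 and 1607 after (3.62 ± 0.46). The 2 genes that fell were Ackr1 and Cx3cl1. Cx3cl1, the neuronal ligand of CX3CR1, was at 3532 to 3932 before and at 404, 1359 and 1053 after.

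Among cytokines and inflammasome genes 8 of 32 rose (25%) and 1 fell (3.13%), against 8.63% and 11.8% over all tested genes. Il1rn, the antagonist of interleukin-1, was at 41.7, 98.9, 87.8 and 72.4 before and 1954, 498 and 1391 after (3.93 ± 0.48, adjusted p = 1.1e-05). Il1b itself was at 101 to 132 before and at 448, 381 and 525 after (log2 fold change 1.95). Relb, a subunit of the NF-kB factors, and Pycard, the adaptor of the inflammasome, had log2 fold changes of 3.15 and 2.04. Il1r2, the decoy receptor for interleukin-1, was the member that fell (-2.85). Tnf was at 13.3 to 91.0 before and at 96.6, 131 and 164 after and was not called (adjusted p = 0.066).

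Of 20 tested complement genes 6 rose (30%) and 1 fell (5%), against 8.63% and 11.8% over all tested genes. Cfb, factor B of the alternative pathway, was at 131, 247, 333 and 442 before and at 1988, 5055 and 3077 after (3.57 ± 0.45). C3, the central component, was at 284 to 534 before and at 682, 1175 and 957 after (1.18 ± 0.42, adjusted p = 0.047), and lost its call in all 7 fits without 1 library. C4b and the C1q subunit C1qc rose, with log2 fold changes of 2.09 and 1.18. Cfp, properdin, fell from 670 to 1757 in the naïve libraries to 187, 158 and 344. Without replicate 1, and likewise without replicate 3, the count of rises was 2.

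The lysosome was the broadest of the clearance lists. Of 48 tested genes 25 rose and 0 fell, with a median log2 fold change of 0.77, and the list took 5.96 to 7.17% of normalized counts in naïve and 9.60, 9.71 and 11.8% in ONC libraries. Grn, progranulin, which regulates lysosomal enzymes, was at 54374 to 63098 before and at 226199, 128210 and 241226 after (1.68 ± 0.34, adjusted p = 0.0015). The protease Ctsb was at 98878 to 122408 before and 290671 to 361603 after, and Lamp1, a membrane protein of the lysosome, at 1526 to 1776 and 2627 to 4685. Naglu and Mcoln1, a lysosomal calcium channel, had log2 fold changes of 3.19 and 2.37. The naïve values of Naglu, which degrades heparan sulfate, spread widely. It was at 294, 946, 2078 and 3718 before and at 16211, 6762 and 12381 after. Subunits of the V-type ATPase, which acidifies the lysosome, were among those not called. Atp6v1a, Atp6v0d1, Atp6v1h, Atp6v1b2 and Atp6v0c had log2 fold changes of -0.30 to 0.45. The count was 13 without replicate 1, 32 without replicate 2 and 14 with the rod marker mean as a covariate.

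Receptors for phagocytosis and for the clearance of dying cells moved in both directions. Of 34 tested genes 8 rose (23.5%) and 5 fell (14.7%), against 8.63% and 11.8% over all tested genes. The share of falls was thus near that over all genes. Cd300lf, a receptor for phosphatidylserine, was at 132 to 158 before and at 1915, 899 and 1250 after (3.16 ± 0.43), and the Fc receptor gene Fcgr4 rose, with a log2 fold change of 2.15. The 5 that fell were Mrc1, Timd4, Stab1, Msr1 and Colec12. Mrc1, the mannose receptor, was at 10863, 11738, 6164 and 10720 before and at 200, 727 and 1459 after (-4.00 ± 0.55, adjusted p = 3.7e-05). Without replicate 1 the counts were 5 and 3, without replicate 2 they were 13 and 6, and without replicate 3 both were 5. Stab1, a scavenger receptor, was at 12071 to 21578 before and at 2486, 2730 and 7349 after.

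These fallen receptors moved together with markers of border-associated macrophages, the macrophages of vessels and membranes around the nervous tissue, which the Cx3cr1 reporter can also mark. Of 12 tested border macrophage markers 8 fell and 0 rose, with a median log2 fold change of -3.58. Summed, they took 0.224, 0.241, 0.117 and 0.199% of the naïve libraries and 0.0133, 0.0217 and 0.0497% of the ONC libraries. Cd163, a haemoglobin scavenger receptor, was at 2128, 1970, 1017 and 2337 in naïve libraries and at 0, 70.2 and 433 after ONC. Lyve1 was at 1157 to 2314 before and 25.5, 192 and 76.0 after, and Pf4 at 1581 to 4521 and 150, 168 and 397. Cd209f had no read in the ONC libraries, which is at least 17.3-fold lower than its naïve mean of 63.3 at a limit of 3 reads per library. It passed the filter only through the naïve libraries. Mrc1 and Stab1 are on both lists, and the part of border macrophages in the falls of Mrc1, Stab1, Timd4, Msr1 and Cfp was not tested. In the libraries labelled KO, of which 3 naïve ones held fewer microglial transcripts, 0 of the 12 were called lower. Their median log2 fold change there was -0.22, and -1.10 against KO naïve replicate 3 alone. Summed, they took 0.0895, 0.111, 0.178 and 0.124% of the libraries labelled KO naïve. In those labelled KO ONC it was 0.147, 0.0837, 0.0640 and 0.0482%. For Lyve1 the difference of the response between the genotypes was 3.53 on the log2 scale (adjusted p = 0.048), a call lost in 18 of 29 alternatives, whose adjusted p ranged from 0.0014 to 0.38.

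Most genes of cholesterol synthesis and uptake were called lower, while most of cholesterol efflux and lipid storage were not called. Of 26 tested genes of cholesterol synthesis and uptake 0 rose and 18 fell, with a median log2 fold change of -1.02, and leaving out any 1 of the ONC libraries left 14 to 19 falls. They took 0.176 to 0.212% of normalized counts in naïve and 0.0668, 0.0966 and 0.0841% in ONC libraries. Sqle, squalene epoxidase (chromosome 15, 59315077 to 59331192), was at 1891, 2717, 2143 and 2346 before and 411, 868 and 1005 after (-1.66 ± 0.26, adjusted p = 0.00011). Lss, the lanosterol synthase that acts next, was at 1106 to 1312 before and at 217, 434 and 576 after (-1.65 ± 0.31). Srebf2, the transcription factor that drives the pathway, had a log2 fold change of -0.87. The 8 members not called included Insig1, Scap, Ebp and Dhcr7. Rod markers took 0.576, 2.14 and 0.693% of ONC replicates 1 to 3. With the rod marker mean as a covariate 16 of the 26 fell, with a median log2 fold change of -1.02. The part of rod transcripts in the fall was not tested beyond that fit. Sterol-responsive promoters contain elements such as CACCCCAC. Of the 18 fallen genes 10 had a window, and 2 of these held the letters or their complement GTGGGGTG, against 3.79% of tested genes with a window. Over all list members with a window it was 2 of 18, and among all genes called lower 4.67%.

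Of 25 tested genes of cholesterol efflux and lipid storage 6 rose (24%, against 8.63% over all tested genes), 0 fell and 19 were not called. Their log2 fold changes were positive in 17 and negative in 8. Summed, the list took 0.810 to 1.40% of naïve and 0.254, 0.981 and 0.533% of ONC libraries. Ch25h, the cholesterol 25-hydroxylase, which is itself induced by interferon, was at 157, 136, 62.5 and 64.1 before and at 1378, 529 and 1440 after (3.39 ± 0.53). Lpl, lipoprotein lipase, was at 2422 to 2912 before and at 5970, 8331 and 7690 after (1.41 ± 0.23), and Soat1, which esterifies cholesterol for storage, was at 2566 to 3142 and at 11970, 4047 and 9039. Without replicate 1 there were 2 rises, without replicate 2 there were 10 and 3 falls, without replicate 3 there were 4, and after division by library totals 4 rises and 2 falls. Abca1, the main exporter, was at 3416 to 5721 before and at 6042, 3756 and 7629 after and was not called (adjusted p = 0.38).

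Core autophagy genes moved in both directions. Of 40 tested genes of the macroautophagy machinery 5 rose and 5 fell, close to the shares over all genes. Gabarapl1, Ambra1, Atg9a, Atg13 and Plekhm1 fell, with log2 fold changes of -1.07, -0.91, -0.91, -0.87 and -0.72. Gabarapl1, a member of the ATG8 family that coats the autophagosome, was at 2884 to 4014 before and at 1566, 2108 and 1425 after, and Atg9a, the lipid scramblase of the growing membrane, at 2156 to 2584 and 1229, 1365 and 1281. Gabarap, another ATG8 protein, was at 5155 to 5554 before and at 20768, 6907 and 11288 after (1.12 ± 0.25). Atg3, the enzyme that joins ATG8 proteins to lipid, was at 178, 258, 220 and 678 before and at 2169, 1933 and 2658 after (2.95 ± 0.81, adjusted p = 0.014). Uvrag, Wipi2 and Vamp8 were the other rises. After division by library totals 4 were higher and 9 lower. Without replicates 1, 2 and 3 in turn 2, 8 and 3 were higher and 4, 5 and 5 lower.

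In energy metabolism the share of genes called was close to the 20.5% over all tested genes. Rises made up 4.17% of glycolysis and 20.9% of respiratory chain genes, against 8.63% over all tested genes. Of 24 tested glycolysis genes 1 rose and 4 fell, and 3 rose and 6 fell without ONC replicate 2. There was no rise without replicate 3 or with the rod marker mean as a covariate, and 8 falls after division by library totals and 6 after quantile normalization. The fallen genes were Pfkm, Eno2, Slc2a3 and Aldoc, of which Eno2 and Slc2a3 are the neuronal forms of enolase and of the glucose transporter and Aldoc an astroglial and neuronal aldolase. Eno2 was at 7130 to 7753 before and at 1393, 3786 and 1801 after. Pfkfb3, which makes the activator of phosphofructokinase, rose from 2447 to 2821 to 5301, 4366 and 6517. Of 43 nuclear genes of the respiratory chain 9 rose and 0 fell, a count that rested on single libraries. It was 0 without replicate 1, 24 without replicate 2, 16 without replicate 3, 0 with both groups alone and 2 after division by library totals. The list took 1.08% of replicate 1 but 0.698% and 0.608% of replicates 2 and 3, against 0.684 to 0.773% of the naïve libraries.

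Immediate early genes were divided. Of 24 tested genes 4 rose (16.7%) and 5 fell (20.8%), against 8.63% and 11.8% over all tested genes. Egr1, a zinc finger factor induced within minutes of stimulation, was at 145, 85.0, 80.2 and 374 before and at 2659, 1948 and 3398 after (4.22 ± 0.79, adjusted p = 0.00072), and Egr2 rose, with a log2 fold change of 2.24. Fos, which pairs with JUN in the AP-1 factor, was at 668 to 884 before and at 111, 467 and 353 after (-1.51 ± 0.37), and the heat shock genes Hspa1a and Hspa1b fell by 1.36 and 1.52 on the log2 scale. Genes of these families respond to tissue dissociation as well. Without replicate 1 there were 2 falls, without replicate 3 there were 3, and with both groups alone 1. Among growth factors 3 of 21 rose and 3 fell, 14.3% each, against 8.63% and 11.8% over all tested genes. Fgf2, a survival factor that retinal glia and photoreceptors make after injury, was at 128 to 145 before and at 248, 659 and 712 after, and at 480 to 1569 in the WT IOP libraries. Hbegf was at 364 to 621 before and at 59.1, 113 and 53.8 after. Among purinergic genes 3 of 19 rose (15.8%, against 8.63% over all) and 2 fell (10.5%, against 11.8%), and 5 fell after division by library totals. P2rx4, the ATP-gated channel that microglia raise after nerve injury, was at 2580 to 3648 before and at 11084, 6632 and 9302 after (1.52 ± 0.29).

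The 12 largest rises among protein-coding genes with a mean of at least 100 and no overlap were Cxcl13, Klrb1b, B430305J03Rik, Socs1, Ecel1, Edn2, Sap30, Klrg2, Scand1, Acod1, Gcm2 and Tmem160, with log2 fold changes of 6.88 to 4.96. Of the 1338 genes called higher, 20 were below 10 in every naïve library and passed the filter only through the ONC libraries. Klrb1b, Socs1 and Edn2 were among these. Of the 1836 called lower, 78 were below 10 in every ONC library and passed only through the naïve libraries. Tlr5 and Itga8 were among these. B430305J03Rik lost its call in 4 of 7 fits without 1 library, with the rod marker mean as a covariate, with edgeR (adjusted p = 0.081) and with DESeq2 (adjusted p = 0.097). With the rod covariate Scand1, Acod1 and Gcm2 lost theirs too, as they did without ONC replicate 1. Scand1 and Acod1 lost theirs without naïve replicate 1, Acod1 and Tmem160 without ONC replicate 3, and Scand1 with edgeR. Klrb1b, an inhibitory lectin receptor best known from natural killer cells, was at 0, 8.99, 1.69 and 9.29 before and at 651, 254 and 415 after. The list of T, B and NK cell markers took 0.0454 to 0.056% of naïve and 0.0399 to 0.0637% of ONC libraries, and its members Prf1, Gzma, Gzmb and Ncr1 did not reach the filter. Of 10 tested members Trac rose, a call lost in 5 of 7 fits without 1 library, and Cd4 fell. Socs1, the feedback inhibitor of interferon and cytokine signalling, was at 0 in 3 naïve libraries and 9.29 in the fourth, and at 61.7, 85.2 and 172 after ONC. Acod1, which makes the metabolite itaconate in activated macrophages, was at 0 to 51.5 before and at 812, 435 and 826 after. Ecel1, a neuronal peptidase raised in injured neurons, was at 0 to 16.0 before and at 79.2, 566 and 242 after, and Edn2, an endothelin that stressed photoreceptors make, at 0 to 9.81 before and 24.2, 281 and 111 after. For both, replicate 2, the library with the most rod transcripts, was the highest of the ONC libraries. Edn2 was also high after IOP elevation, at 115 to 569.

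A group of the rises was high in libraries without crush as well. In the library labelled KO naïve replicate 1, 297 of the 1338 genes called higher (22.2%) reached the lowest WT ONC library, and in those labelled KO naïve replicates 2, 3 and 4 it was 105, 181 and 65. Tmem160 was at 12.4 to 25.1 in WT naïve, at 506, 336 and 1286 in WT ONC, but at 478 in KO naïve replicate 1 and at 3.9 to 51.0 in replicates 2 to 4. Atg3, Uvrag and Wipi2 were likewise at 1933, 1606 and 2426 in KO naïve replicate 1, within their WT ONC ranges. That library held 1.28% of microglia markers, against 3.07 to 3.88% in WT naïve libraries, and 0.386% of pigment epithelium markers, against at most 0.0130%. The part of these shares in its values was not tested. In each WT IOP library 175 to 230 of the 1338 genes reached it.

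The 12 largest falls under the same rule were Gabrb1, Ankfn1, Tlr5, Lamb1, Hbb-bt, Rspo4, Hbb-bs, Fcna, Il1rapl2, Hba-a1, Gabrg1 and Hba-a2, with log2 fold changes of -6.60 to -5.78. The haemoglobin genes Hba-a1, Hba-a2, Hbb-bs and Hbb-bt come from red cells: Hba-a1 was at 4184, 3599, 2270 and 4980 before and at 36.2, 641 and 9.36 after. Hba-a1 and Hba-a2 are near-identical copies, as are Hbb-bs and Hbb-bt, and their single values are uncertain. All 4 lost their call without ONC replicate 1, without replicate 3 and with the rod marker mean as a covariate, where the adjusted p of Hba-a1 was 0.090, 0.11 and 0.10, and Il1rapl2 lost its call with edgeR. Gabrb1 and Gabrg1, GABA receptor subunits, were at 273 to 445 and 183 to 217 before and at 0, 23 and 1.17 and 0, 43.7 and 0 after, and replicate 2 was the highest ONC library for both. Tlr5, the receptor for flagellin, was at 132, 193, 110 and 91.0 in naïve libraries and had 1 read in the 3 ONC libraries together, a ratio of 294 with a 95% counting interval of 58.0 to 12761. It was at 87.7 to 192 in the WT IOP libraries.

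Neuronal transcripts fell unequally. Of 10 tested markers of retinal ganglion cells, the neurons whose axons were crushed, 7 fell and 0 rose, with a median log2 fold change of -2.65, and in sum they took 0.0428 to 0.0564% of naïve and 0.00446, 0.0171 and 0.00942% of ONC libraries. Nefl, neurofilament light chain, was at 7682 to 12052 before and at 365, 1896 and 1957 after (-3.15 ± 0.38). With both groups alone, and after quantile normalization, 4 of the 10 fell. Sncg, gamma-synuclein, was at 198 to 284 before and at 45.6, 81.7 and 73.7 after. In the WT IOP libraries Nefl was at 7347 to 11775 and Sncg at 438 to 810. Of 15 bipolar and amacrine cell markers 8 fell and 0 rose. The 8 fallen genes were Gad1, Gad2, Slc6a9, Slc32a1, Tfap2a, Tfap2b, Pax6 and Calb2, which amacrine cells express. Gad1, the enzyme that makes GABA, was at 19056 to 20726 before and at 1072, 4481 and 2887 after, and Pax6 at 5891 to 7301 and 643, 1564 and 987. Of the bipolar cell genes Cabp5, Grm6, Trpm1, Prkca, Pcp2 and Vsx1 0 were called. Of 15 rod markers 3 were called lower with all libraries (20%, against 11.8% of all tested genes), 12 without replicate 2 and 0 without replicate 1. In replicate 2 the bipolar and amacrine list took 0.115%, against at least 0.175% in naïve libraries. In the WT IOP libraries that list took 0.0946 to 0.142%, also below every naïve library. Against IOP 9 of its 15 markers were called lower in ONC. With the rod marker mean as a covariate 8 bipolar and amacrine markers fell and 1 rose in WT ONC against WT naïve, and 5 ganglion cell markers fell. The part of the rod share in these falls was not tested beyond that fit. Markers of monocytes took 0.00951 to 0.0162% of naïve and 0.0101 to 0.0148% of ONC libraries, and Ccr2 was not called. Of neutrophil markers, Camp was at 0 in all 7 libraries, and S100a8, S100a9, Ltf, Ngp, Mmp8 and Retnlg did not reach the filter, while 1 of 3 tested markers rose, the receptor gene Csf3r, which microglia can express. That call was lost without ONC replicate 1, without replicate 3, with the rod covariate, under the 3 rescalings by upper quartile, library total and quantiles, and with edgeR. Lens, pigment epithelium and endothelial lists took at most 0.0130, 0.0130 and 0.0325% of any of the 7 libraries.

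**Figure D4:**
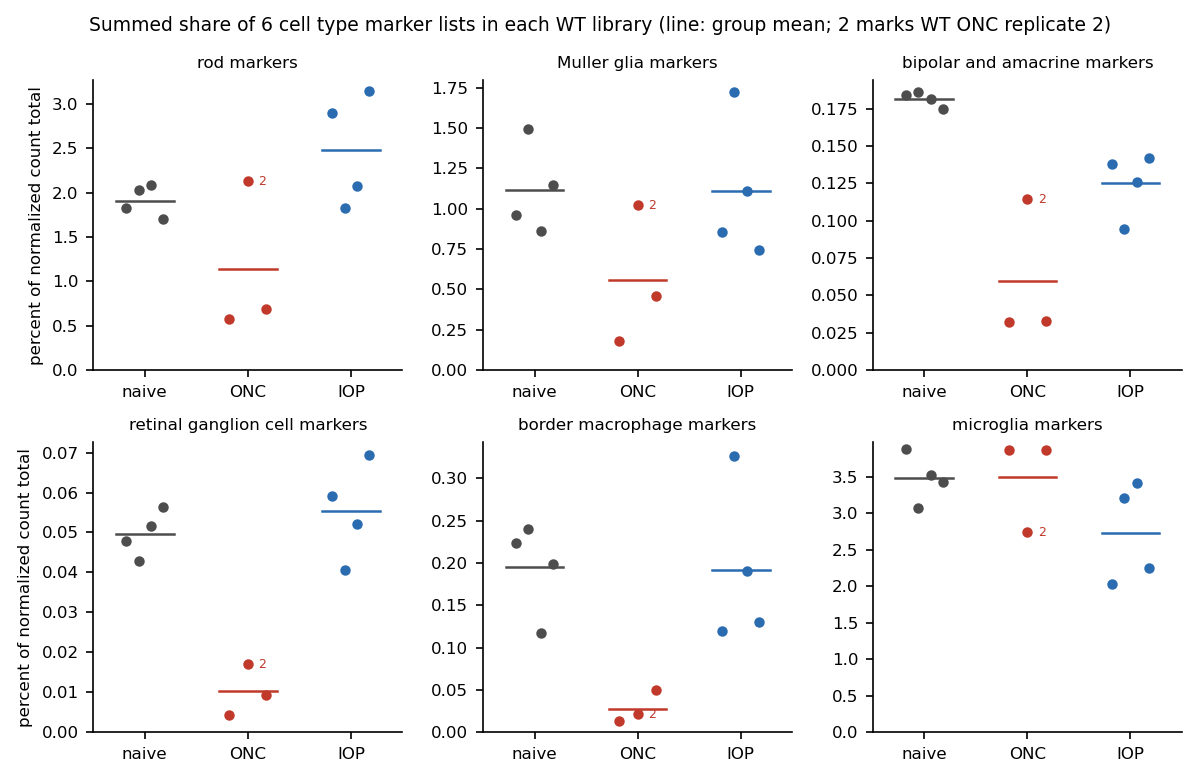
Percent of the normalized count total taken by 6 cell type marker lists in each WT library, with a point per library and a line at the group mean. Rod and Müller glia shares of ONC replicate 2 lie with the naïve libraries, and bipolar and amacrine, ganglion cell and border macrophage shares lie below them in all 3 ONC libraries.

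Raised eye pressure served as a second injury of the same neurons, at a later time, so the values differ in both injury and time. Against the 4 WT IOP libraries 1708 genes (11.0%) were called higher in WT ONC and 2019 (13%) lower. Both comparisons share the 3 ONC libraries. Of the tested genes, 39 of 47 interferon genes, 27 of 40 disease-associated genes and 34 of 48 lysosome genes were called higher in ONC than in IOP. The interferon list took 0.267, 0.345, 0.566 and 0.280% of the IOP libraries. Cst7 was at 171, 405, 432 and 191 after IOP elevation, on both sides of its naïve range, and Itgax at 169 to 958. Of the cholesterol genes 18 were lower in ONC than in IOP, where the list took 0.162 to 0.206%. IOP replicates 1 and 4 held the most rod transcripts of the 4, at 2.89 and 3.14%, and the most lens transcripts, 0.925 and 1.00%. Microglia markers took 2.03 and 2.25% of IOP replicates 1 and 4, and 3.21 and 3.41% of IOP replicates 2 and 3. They took 2.75 to 3.87% of the ONC and 3.07 to 3.88% of the naïve libraries. Of 30 homeostatic genes 9 were called higher and 0 lower in ONC than in IOP. The part of these shares in the counts against IOP was not tested. The comparison was less stable than that with naïve retinas: with both groups alone 666 genes were called, and with the rod marker mean as a covariate 367.

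The response was also read in the libraries labelled KO, which share no library with the WT comparison. Spp1 checks these labels. It was at 350, 53.1, 6.78 and 81.6 in the libraries labelled KO naïve and at 4750, 6811, 15.0 and 6226 in those labelled KO ONC, so 3 of the 4 held more Spp1 reads than any WT naïve library. Whether these reads come from the part of the gene that the KO allele keeps, or from libraries that carry a wrong label, was not tested, and every value of the libraries labelled KO is open to that doubt. The libraries labelled KO naïve also differed among themselves. Microglia markers took 1.28, 1.60 and 1.76% of replicates 1, 2 and 4 and rod markers 3.55, 3.80 and 4.24%, against 3.76 and 1.36% in replicate 3, and 3.12 to 3.75% and 0.806 to 1.17% in the libraries labelled KO ONC. These shares move with the KO changes, and values with replicate 3 as the only KO naïve library are given beside them. Of the 1338 genes called higher in WT, 1275 (95.3%) had a positive log2 fold change in the KO libraries, where 46.6% of all tested genes did, and 729 (54.5%) were called higher there, against 14.1% of all tested genes. Of the 1836 called lower in WT, 1724 (93.9%) had a negative log2 fold change in KO, against 53.4% of all, and 858 (46.7%) were called lower, against 12% of all. The list medians in WT and KO were 2.31 and 2.33 for interferon, 1.42 and 2.09 for disease-associated, 1.54 and 1.64 for cell cycle, 0.77 and 1.37 for lysosome and -1.02 and -0.81 for cholesterol synthesis genes. Homeostatic genes had a median of 0.25 in WT and 1.01 in KO, where 19 of 30 were called higher and 0 lower. Against KO naïve replicate 3 alone the KO medians were 1.51 for interferon, 1.40 for disease-associated, 1.09 for cell cycle, 0.69 for lysosome, -0.92 for cholesterol synthesis and 0.02 for homeostatic genes, of which 0 were called. With 1 library in that group, assumed to vary like the others, 42 of the 1338 and 13 of the 1836 genes were called in the same direction, and with the rod marker mean as a covariate over all libraries 203 and 87. The difference between the 2 responses passed the test for 13 genes (0.0839%), a count that ranged from 0 with edgeR on recovered reads (1857 at an unadjusted p under 0.05) to 200 with DESeq2 and from 3 to 649 when 1 library was left out. Tlr5 was among them, with a log2 fold change of -6.58 in WT and -0.98 in KO (adjusted p of the difference 0.0082), and was not called in 4 of 29 alternatives, whose adjusted p ranged from 0.00027 to 0.21. Tlr5 passed the filter only through the WT naïve libraries, where it was high, which limits what its test of the difference can show.

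**Figure D5:**
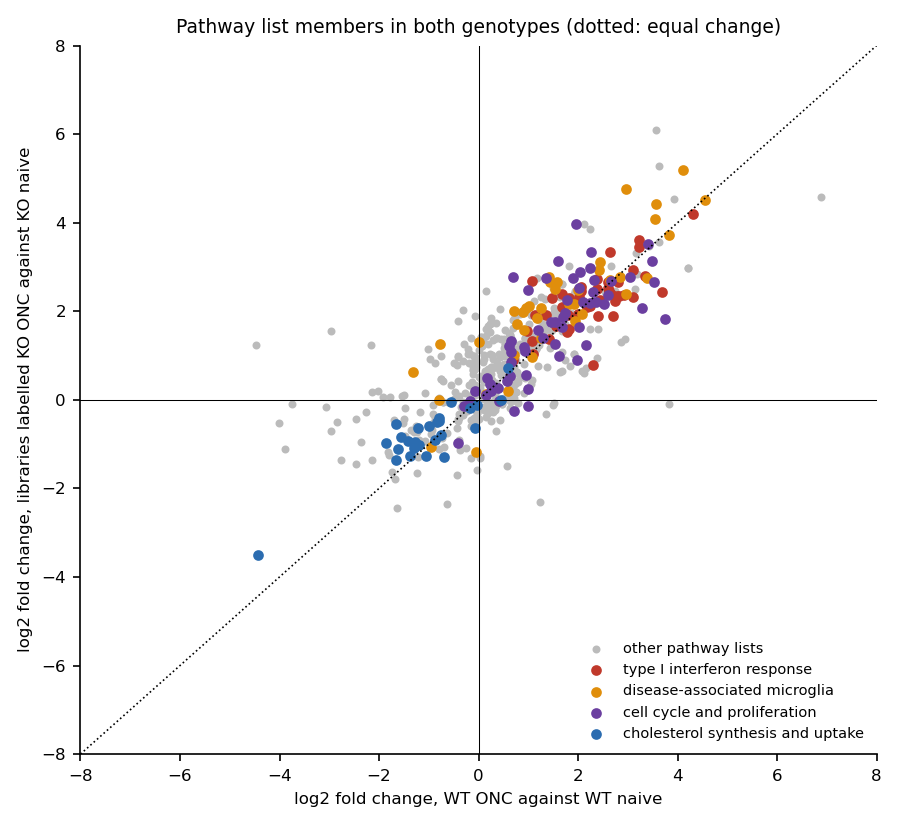
Log2 fold change after ONC of the tested members of the pathway lists in WT (horizontal) and in the libraries labelled KO (vertical), with the dotted line at equal change. Interferon genes lie around the line with medians of 2.31 and 2.33, disease-associated genes lie mostly above it (1.42 and 2.09, but 1.40 in KO against KO naïve replicate 3 alone, the library of the 4 with the most microglial transcripts), and cholesterol synthesis genes lie in the lower left.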

How the data were processed

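RNA-seq of FACS-sorted GFP+ retinal microglia was analysed. Per the methods, paired-end 150-bp reads were mapped by the authors to GRCm38 with salmon, while the submitters' processing notes name STAR and DESeq2 (versions not given in the sources used here). The authors deposited normalized counts, signal values in which each read count is scaled by its library size factor. Values of 21 of the 23 libraries were whole reads divided by 1 factor (100% of values, tolerance 0.01 reads), and edgeR and DESeq2 used these recovered reads. KO IOP replicates 2 and 4 gave no whole reads and were left out of both. Gene names and positions come from GENCODE M21 (GRCm38): 34732 IDs matched with their version, 704 with another version (no position printed), and 389 have no name.

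The filter was 10 normalized counts in 3 or more of the 7 WT naïve and WT ONC libraries. Values were tested as log2(normalized count + 1), using limma 3.58.1 (R 4.3.3) (6 groups, all 23 libraries sharing 1 estimate of the spread, eBayes with trend, Benjamini-Hochberg adjustment), the thresholds being those of the study's methods. Fold changes on this scale understate changes of low genes. Nothing says that libraries of a group came from separate days or cultures, so p-values measure the spread between these libraries. For a single gene, 3 against 4 libraries cannot give an exact two-sided permutation p under 0.0571, and no such test was used. The procedure was tested on simulated data.

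Members and gene lists were chosen with earlier results of these data known. Genes named are the 12 largest rises and 12 largest falls (called, protein-coding, no overlap, mean of at least 100 in the higher group, on no list of another cell type), up to 4 called members of each pathway list in each direction (or the 2 with the lowest adjusted p), 11 fixed genes, and called and most abundant marker genes. Other members, and Ifnar1, were named after their values were seen. Some genes that the rule names are not reported here.

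Alternatives were a pseudocount of 0.5 or 5, another filter (none, or a mean of 50), another scaling (upper quartile, quantile), a block for the replicate number, a fit of only the groups compared, the rod marker mean as a covariate, edgeR 4.0.16, DESeq2 1.42.0, and leaving out each library. Library-total rescaling, removal of the GC and length trend, and KO naïve replicate 3 as the only KO naïve library were added after the data were seen. Promoter windows come from RefSeq (GRCm38.p6). Python 3.11.15 was used for tables and figures.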

Additional observations from a re-analysis of the deposited data

Results flagged for a closer look

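In single WT naïve libraries some values stood apart from the other 3, by a gap larger than Dixon's test allows for 4 samples at the 95% level. Chance flags about 1 in 20 groups. Naïve replicate 3 was high for Aplp2 (30230) and low for the border macrophage genes Mrc1 (6164) and F13a1 (5599), and was low for the disease-associated list (4.06% of normalized counts). Naïve replicate 1 was low for H2-Q6 (400.4) and high for Gngt2 (2288), the MHC class II list (1.06%) and the complement list (1.56%). Naïve replicate 4 was high for Socs1 (9.29), for the myelin gene Mbp (19220) and for the oligodendrocyte list (0.101%), and naïve replicate 2 for Edn2 (9.81) and the lens list (0.0130%).

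The ONC response differed between the libraries labelled KO and WT, by a test of the difference itself, for Tlr5 (5.60 on the log2 scale, adjusted p = 0.00817 in limma) and Lyve1 (3.53, adjusted p = 0.0483). For both the fall was larger in WT. Tlr5 passed the filter only through the WT naïve libraries, where it was high. With edgeR neither passed (adjusted p = 0.124 for Lyve1 and 0.0518 for Tlr5), and against KO naïve replicate 3 alone, the library of the 4 with the most microglial transcripts, neither was called.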

How the results depend on the processing

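The 3174 calls between WT ONC and WT naïve became 1868 with both groups alone and 1832 with the rod marker mean as a covariate, and ranged from 1507 to 5269 when 1 library was left out (without ONC replicates 1 and 2). No gene called was called in the opposite direction under any alternative. Higher genes made up 42.2% of the calls as deposited, 32.2% after upper-quartile rescaling, 21.6% after library-total rescaling, 52.4% with DESeq2, 53.5% with edgeR and 53.2% with the GC and length trend removed. The 3727 calls against WT IOP became 666 with the groups alone and 367 with the rod covariate, and 1291 to 5786 with 1 library left out. The 13 genes with a difference between genotypes became 6 with a pseudocount of 0.5, 8 without a filter, 8 with KO naïve replicate 3 as the only KO naïve library, 5 after library-total rescaling, 21 with the GC and length trend removed, 61 after quantile normalization, 2 with the groups alone, 158 with the rod covariate and 200 with DESeq2, and 3 to 649 with 1 library left out. edgeR gave 0 at the adjusted threshold and 1857 genes at an unadjusted p under 0.05. The causes of these shifts were not tested.

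Same-numbered WT libraries correlated at 0.026, 0.075 and -0.051 in their deviations from the group means, and the other pairs at -0.063 to 0.038. With 3 and 4 libraries these values cannot show whether the replicate numbers pair the samples. With the number as a replicate block 2653 genes were called, and 7 differed between genotypes.

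Over 172 named genes and 20 alternatives, 3054 of 3433 values kept their direction and side of the threshold, 338 lost a call, 23 gained one and 18 changed sign. The sign changes were in genes not called: Csf1r (-0.12 after library-total rescaling, -0.041 after quantile normalization, -0.36 with the rod covariate), Opn1sw (0.33 with the rod covariate, 0.22 with edgeR and with DESeq2, -0.51 to 0.68 with 1 library left out), Kdr (0.40 with the GC and length trend removed, -0.61 to 0.20 with 1 library left out), Ighm (-0.0077 after quantile normalization, -0.15 with the rod covariate), Itgb3 (0.61 with the trend removed, 0.098 with edgeR, 0.097 with DESeq2, -0.62 to 0.29 with 1 library left out), Cx3cr1 (0.20 with the trend removed) and Tmem119 (-0.34 to 0.20 with 1 library left out). Libraries from an unknown number of mice, 3 against 4, limit what can be resolved.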
